A study of Mus musculus with 24 samples.

Results

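The comparison asked whether a past sepsis was followed by the same expression changes in macrophages taken from tumours as in macrophages grown from bone marrow. It set the difference between tumour-associated macrophages (TAM) of post-sepsis and naïve mice against the difference between unpolarized marrow macrophages (M0) of post-sepsis and naïve mice, gene by gene. The arrays were chosen by their labels alone, 15 of the 24 in the series. They were 4 of TAM post-sepsis, 3 of TAM naïve (replicates 1, 3 and 4), 4 of M0 post-sepsis and 4 of M0 naïve. TAM naïve replicate 2 was left out because the submitters had dropped it for low RNA amount and quality. All mice were C57BL/6 males of 10 weeks, and the post-sepsis cells were isolated 14 days after the induction of sepsis. TAM were enriched on a Percoll gradient followed by 1 hour of adhesion. M0 were adherent marrow progenitors cultured for 7 days in RPMI with 20% L929 supernatant and 10% FBS. The labels named neither the tumour line nor the way sepsis was induced. The submitters ran 3 tumour experiments (4 mice in every group) and kept the 4 RNA samples with the best absorbance ratios out of 12. For marrow they ran 2 experiments (3 samples in every group) and again kept 4. The labels do not tie samples to experiments, so the p-values measure the spread between chosen samples.

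Macrophages differ by their source. Tumour macrophages arise largely from blood monocytes and are shaped by the tumour, whereas marrow macrophages grow in culture under the growth factor CSF1, which L929 cells secrete. Macrophages also give off small amounts of type I interferon, which acts back on the cells through its receptor IFNAR and keeps a set of antiviral genes switched on. Sterol and fatty acid synthesis is set by SREBP factors, the hypoxia response by HIF factors and the amino acid response by ATF4.

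Levels are given as log2 of the processed intensity relative to the 75th percentile of each array, so that 0 is that percentile, and an effect is a post-sepsis mean minus the naïve mean. The difference is the effect in TAM minus the effect in M0. A positive difference therefore means that the post-sepsis change lay higher in TAM, whether because the gene rose there or because it fell in M0. Between 57.0% and 66.7% of probes were well above background on the 15 arrays, no spot was saturated, and 31815 genes or unnamed probes were kept. Pairs of arrays within a group correlated at 0.897 to 0.992. TAM post-sepsis replicate 2 stood apart from its group, with a mean correlation of 0.932 to its 3 group mates. M0 post-sepsis replicate 3 stood at 0.919. Sepsis status has no marker here, so the post-sepsis and naïve labels could not be checked against the data. The arrays lay on 3 slides, of which slides 2 and 3 held all 4 groups.

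The markers set the TAM arrays apart from a pure macrophage population. The summed level of 10 pigment cell markers was 1960 to 2450 times the 75th percentile in TAM post-sepsis and 1900 to 2520 in TAM naïve, against 7.76 to 12.1 in M0 post-sepsis and 16.3 to 22.3 in M0 naïve. Dct, which encodes a melanin-making enzyme, had levels of 9.50, 9.82, 9.33 and 9.63 in TAM post-sepsis and 9.71, 9.61 and 9.89 in TAM naïve, and was well above background on no M0 array. The summed level of 18 macrophage markers ran the other way, at 96.6 to 235 in TAM post-sepsis and 250 to 419 in TAM naïve, against 1130 to 1870 in M0 post-sepsis and 2060 to 2790 in M0 naïve. Post-sepsis and naïve sums did not overlap in either cell type, but in TAM this rested on Itgam, an integrin that neutrophils carry too, at 22.7 to 202 in TAM post-sepsis and 160 to 371 in TAM naïve. Without Itgam, left out after the values were seen, the sum was 33.3 to 75.7 in TAM post-sepsis and 47.6 to 102 in TAM naïve, with overlap. In M0 it was then 1120 to 1820 post-sepsis and 1850 to 2760 naïve, still without overlap. The samples labelled TAM are therefore described here as adherent tumour cell preparations that hold macrophages. In such mixed samples, fewer cells of a type and less RNA per cell cannot be told apart.

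**Figure D1:**
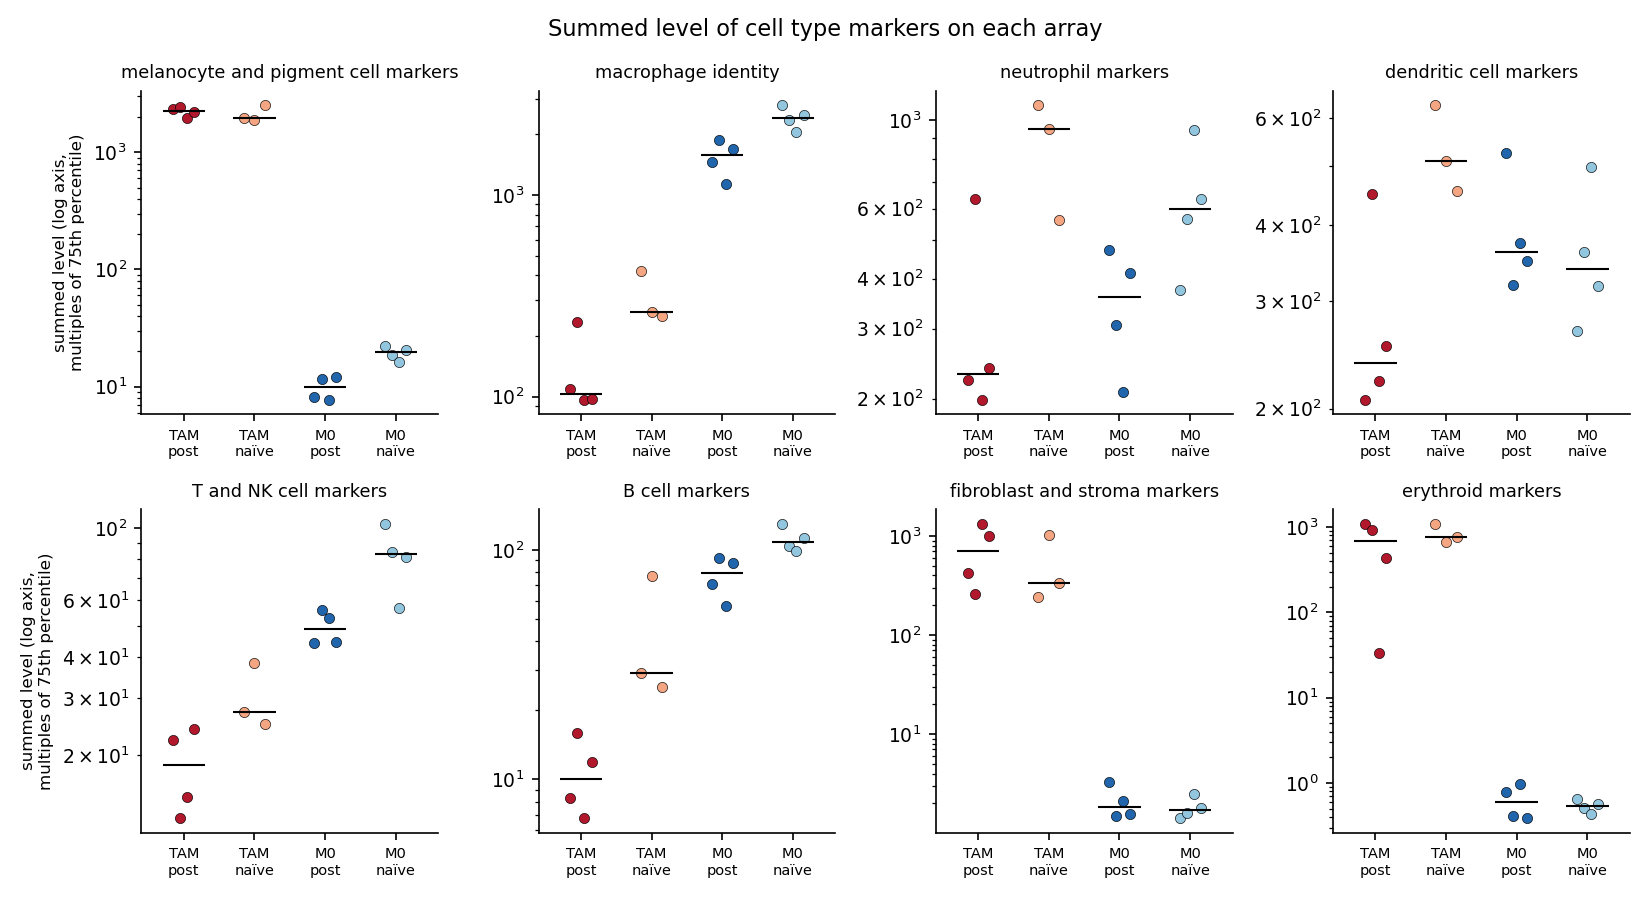
Summed level of cell type markers on each array, in multiples of the array's 75th percentile on a log axis, with a line at each group's median. Pigment cell markers lay above 1900 on all 7 TAM arrays and below 23 on the 8 M0 arrays, and macrophage markers lay higher in M0.

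Some of the other marker lists moved in TAM too. Endothelial markers overlapped, at 33.7 to 46.3 in TAM post-sepsis and 33.5 to 58.4 in TAM naïve. Fibroblast markers did as well, at 258 to 1330 in TAM post-sepsis and 242 to 1020 in TAM naïve. The TAM groups also overlapped for inflammatory monocyte and keratinocyte markers. They did not for dendritic cell markers, at 207 to 450 in TAM post-sepsis and 455 to 630 in TAM naïve. In M0 the dendritic cell markers overlapped, at 319 to 526 post-sepsis and 268 to 499 naïve. Summed T and NK cell markers were 12.8 to 24 in TAM post-sepsis and 24.9 to 38.4 in TAM naïve, and B cell markers 6.79 to 16 in TAM post-sepsis and 25.3 to 77.2 in TAM naïve. Both sums were higher in M0 cultures. There T and NK markers were 44.3 to 56 post-sepsis and 56.5 to 103 naïve, and B markers 56.9 to 92 and 98.9 to 130. On the M0 arrays Cd28 lay at 3.962 to 5.309 and Blnk at 5.638 to 6.937, so both sums are weak evidence on lymphocytes. Mast cell markers were 5.13 to 14.7 in TAM post-sepsis and 19.3 to 45.7 in TAM naïve. Neutrophil markers were at 199 to 635 in TAM post-sepsis and 561 to 1090 in TAM naïve. Most of that sum was Csf3r alone, at levels of 7.317 to 9.265 in TAM post-sepsis and 8.991 to 9.967 in TAM naïve. Csf3r was also at 6.905 to 9.53 on the M0 arrays, so the sum is weak evidence on neutrophils. Erythroid markers were at 33.1 on TAM post-sepsis replicate 3, and at 433 to 1090 on the other 6 TAM arrays. The gap between the median protein-coding gene and the median unnamed probe (the coding gap) was 2.23 to 3.28 log2 in TAM post-sepsis and 1.55 to 2.27 in TAM naïve. What sets this gap was not tested. In M0 the coding gap was 1.64 to 2.98 post-sepsis and 1.76 to 2.54 naïve. The part of these shifts in the results below was not tested, except where a value is given.

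The sepsis effect differed between TAM and M0 for 420 genes in limma at an adjusted p below 0.05, or 1.32% of those tested. Of these, 237 (0.745%) had a higher effect in TAM and 183 (0.575%) a lower one. At an unadjusted p under 0.05 there were 6424. Much of the difference was a change in M0 with little change in TAM. TAM effects are those of the mixed preparation, and how far RNA of other cells made them smaller was not tested. The effect was larger in M0 than in TAM for 357 of the 420, 313 of them passed the test within M0 alone, and the effect in TAM was under 1 log2 unit in 307. The signs were opposite in 301, the same but smaller in TAM in 117, and the same and larger in TAM in 2. The sign held within slide 2 and within slide 3 for all 420. These arrays are among those that chose the 420, so this is no separate test.

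The comparison depended on TAM post-sepsis replicate 2. Without it 2017 genes (6.34%) differed, 724 higher (2.28%) and 1293 lower (4.06%), including all 420. With the slide as a block 334 genes (1.05%) differed, 168 higher (0.528%) and 166 lower (0.522%), and 279 of them were among the 420. Within TAM alone no gene passed limma's test (0.0%), although 11655 had an unadjusted p under 0.05. The TAM test alone called 9923 genes without replicate 2, and 10099 with the slide as a block. Within M0 alone 1361 genes (4.28%) passed, 752 higher (2.36%) and 609 lower (1.91%) post-sepsis. An unadjusted p under 0.05 was reached by 4399 genes in M0, fewer than the 11655 in TAM, so the 0 in TAM does not show an absence of change. The median difference over all genes was -0.255, and quantile normalization moved it to -0.0393. Over protein-coding genes alone it was 0.119.

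**Figure D2:**
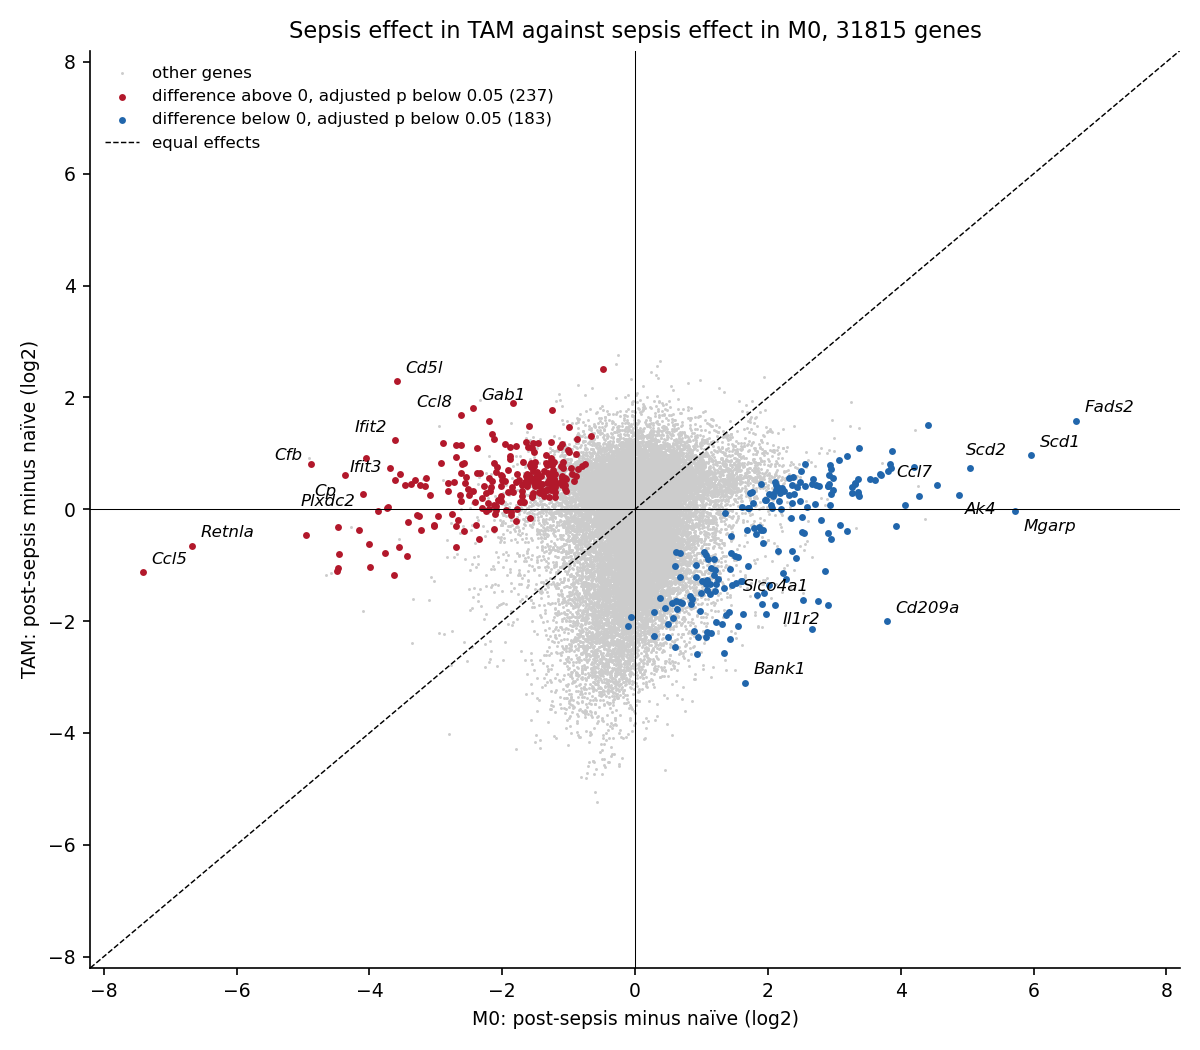
Sepsis effect in TAM (vertical axis, log2) against the sepsis effect in M0 (horizontal axis, log2), 1 point per gene, with 237 genes of higher effect in TAM in red and 183 of lower effect in blue. Called genes spread along the horizontal axis, as most had the larger effect in M0.

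Interferon-induced genes fell in M0 after sepsis and were little moved in TAM. Of 30 measured, 14 had a higher effect in TAM, none a lower one, and all 30 differences were above 0. The list's median effect was 0.23 in TAM and -1.84 in M0, and its median difference was 2.10. Within M0 alone 23 of the 30 fell. Leaving out 1 array at a time gave 8 to 24 calls, with 24 without TAM post-sepsis replicate 2, and the slide block gave 9. The 14 were Ifit1, Ifit2, Ifit3, Ifit3b, Oas1a, Oas1g, Oasl1, Irf7, Rsad2, Cmpk2, Zbp1, Rtp4, Mx1 and Isg20.

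Of the called genes, 5 of those named by rule are shown with the stretch before their start. It holds TTTC and TTTC again 2 bases on, the core of the element that interferon-activated factors bind. Gbp3, also called and named by rule, has 2 matches in its stretch and is not shown. Of the 22 interferon-induced genes with a RefSeq window (250 bases before to 50 after the start, GRCm38.p6), 12 held the motif on either strand, as did 9 of 9 interferon-inducible GTPases and 2 of 13 interferon receptors and transducers. Over all 27025 genes with a window the share was 3.99%. Matches can overlap each other, and neither a match nor its absence shows binding. Each stretch is the 160 bases before the start, read 5′ to 3′ on the gene's strand, with the matches in capitals. Ifit3 lies at chr19:34583369-34583528 (plus strand), Ifit3b at chr19:34607797-34607956 (plus), Oas1g at chr5:120887614-120887773 (minus), Tgtp2 at chr11:49064213-49064372 (minus) and Irgm1 at chr11:48871421-48871580 (minus).
Ifit3: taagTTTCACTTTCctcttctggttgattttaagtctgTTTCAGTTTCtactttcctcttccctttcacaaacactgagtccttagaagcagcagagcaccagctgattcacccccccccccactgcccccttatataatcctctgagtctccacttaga
Ifit3b: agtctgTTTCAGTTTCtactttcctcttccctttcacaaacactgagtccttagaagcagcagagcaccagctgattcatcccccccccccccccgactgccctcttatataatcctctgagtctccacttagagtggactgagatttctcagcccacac
Oas1g: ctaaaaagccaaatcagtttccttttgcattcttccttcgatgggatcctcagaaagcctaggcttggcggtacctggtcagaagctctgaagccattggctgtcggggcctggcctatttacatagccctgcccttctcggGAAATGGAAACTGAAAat
Tgtp2: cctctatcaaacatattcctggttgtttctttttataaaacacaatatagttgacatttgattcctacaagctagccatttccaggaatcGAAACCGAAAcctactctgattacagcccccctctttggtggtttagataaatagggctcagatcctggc
Irgm1: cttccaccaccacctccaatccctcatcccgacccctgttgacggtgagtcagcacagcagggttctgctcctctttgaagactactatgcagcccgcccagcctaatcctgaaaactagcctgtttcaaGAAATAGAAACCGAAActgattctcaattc

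Ifit3, which binds viral RNA together with Ifit1 family members, had levels of 0.47, -0.46, 0.99 and 0.29 in TAM post-sepsis and -0.72, 0.05 and -0.57 in TAM naïve. In M0 the levels were 0.06, 0.55, -0.29 and 0.45 post-sepsis and 4.20, 3.88, 3.44 and 4.00 naïve. The TAM groups overlapped, and the M0 groups lay far apart. The difference was 4.42 ± 0.47 (SE, adjusted p = 0.000464). Ifit2, of the same family, had levels of -0.77, -1.30, -0.20 and -0.54 in TAM post-sepsis and -2.19, -2.33 and -1.28 in TAM naïve. The M0 arrays read -2.39, -1.31, -2.60 and -0.66 post-sepsis and 1.89, 1.76, 1.69 and 2.14 naïve. The TAM groups overlapped at their nearest arrays and the M0 groups did not. Its difference was 4.84 ± 0.60 (adjusted p = 0.00111), and that of Ifit3b, a close copy of Ifit3 whose probe may read both (as those of Oas1a and Oas1g, or Tgtp2 and its copies, may), was 3.89 ± 0.46. Oas1g, a sensor of double-stranded RNA, was well above background on 1 of 7 TAM arrays, and its effects differed at least 1.57-fold (adjusted p = 0.00181). In M0 its mean was -3.92 post-sepsis and -2.14 naïve.

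The interferon-inducible GTPases, which act on vacuoles that hold microbes, gave 4 of 14 with a higher effect in TAM and none lower. These were Gbp4 at 3.44 ± 0.57, Gbp3 at 2.78 ± 0.58, Tgtp2 at 2.47 ± 0.41 and Irgm1 at 2.26 ± 0.46. Tgtp2 levels were 1.14, 0.15, 1.00 and 1.02 in TAM post-sepsis and 1.11, 1.34 and 0.60 in TAM naïve. On M0 arrays the levels were 0.61, 0.84, 0.30 and 0.48 post-sepsis and 3.67, 3.18, 2.81 and 3.22 naïve. Only the M0 groups were apart. None of 15 interferon receptors and signal transducers passed, beside 1.32% of all genes, so the count does not set them apart from genes at large. The receptor chain Ifnar2 had a difference of 1.02 ± 0.40 (adjusted p = 0.205). Of 18 MHC class I genes none passed either, with a median effect of -0.01 in TAM and -0.88 in M0, and the same limit holds.

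Chemokines went both ways, with 4 of 23 higher and 1 lower. Ccl5, which draws T cells and monocytes, had the largest positive difference among genes measured in both cell types. Its levels were 3.45, 2.48, 2.33 and 3.35 in TAM post-sepsis and 4.44, 4.26 and 3.38 in TAM naïve. Levels in M0 were -0.36, 0.03, -0.36 and -0.14 post-sepsis and 7.66, 7.17, 6.81 and 7.18 naïve. The difference was 6.29 ± 0.47 (adjusted p = 4.74e-05), and it arose as a fall of 7.41 in M0 beside an effect of -1.12 in TAM. Cxcl16, a membrane-bound chemokine, followed at 3.39 ± 0.54 and Cxcl10, itself induced by interferon, at 2.61 ± 0.51.

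The 1 chemokine with a lower effect in TAM was Ccl7, a monocyte attractant. Ccl7 had levels of 4.23, 1.73, 4.83 and 4.85 in TAM post-sepsis and 2.55, 4.30 and 3.58 in TAM naïve, against 5.58, 6.34, 5.44 and 6.48 in M0 post-sepsis and 1.84, 1.38, 0.99 and 1.47 in M0 naïve. It rose in M0, and its difference was -4.11 ± 0.87 (adjusted p = 0.0338). Ccl2, which also attracts monocytes, had an effect of 0.42 in TAM and 4.26 in M0, and its difference of -3.84 ± 0.91 missed the threshold (adjusted p = 0.0541). The slide block took it past the threshold (adjusted p = 0.0489), as did leaving out TAM post-sepsis replicate 2 (adjusted p = 0.0134). In TAM that replicate had the lowest level of both genes. Ccl8, another monocyte attractant, had a positive difference of 4.30 ± 0.84, with an effect of 1.68 in TAM and -2.62 in M0.

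**Figure D3:**
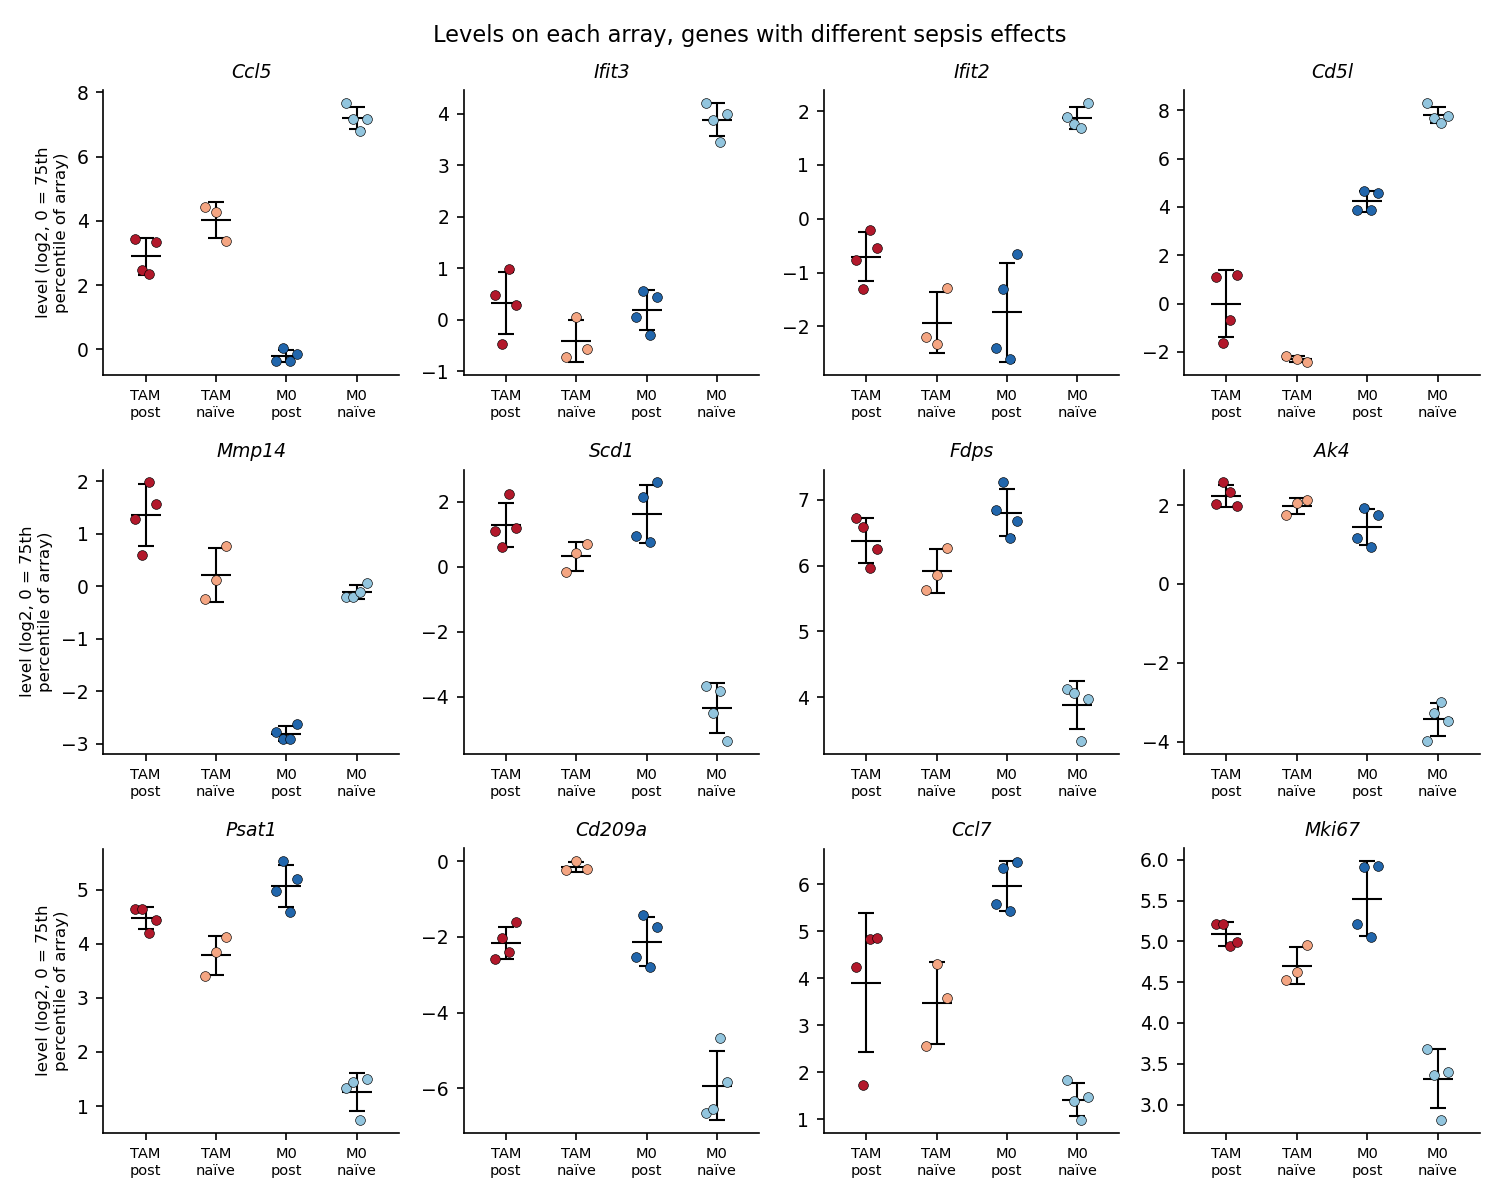
Level on each array (log2, 0 is the array's 75th percentile) of 12 genes with different sepsis effects, in TAM post-sepsis, TAM naïve, M0 post-sepsis and M0 naïve, with the mean and SD. In most panels the M0 naïve arrays stand away from the other 3 groups, as for Ccl5 at 6.81 to 7.66.

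Genes of complement and the uptake of dying cells gave 5 of 19 with a higher effect in TAM and none lower, and 1 to 9 when single arrays were left out. Cd5l, a secreted macrophage protein that binds lipids and limits their death, had levels of 1.12, -1.63, -0.67 and 1.20 in TAM post-sepsis and -2.16, -2.30 and -2.40 in TAM naïve. In M0 its levels were 3.87, 4.65, 3.86 and 4.57 post-sepsis and 8.29, 7.70, 7.50 and 7.77 naïve. The groups did not overlap in either cell type and moved in opposite directions, and the difference was 5.87 ± 0.75 (adjusted p = 0.00145). Complement factor B (Cfb) was at 5.69 ± 1.18, with wide TAM levels of 2.13, -0.15, 4.28 and 3.74 post-sepsis and 0.45, 3.17 and 1.46 naïve. Cfb was well above background on 2 of 4 M0 post-sepsis arrays, so the size of its fall in M0 is uncertain. The receptors Axl and Mertk, which bind dying cells, had differences of 3.75 ± 0.77 and 2.21 ± 0.49. Of the macrophage markers, 3 of 18 had a higher effect in TAM, namely Mertk, Cebpa and Aif1, and 9 did without TAM post-sepsis replicate 2 but none with the slide block.

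Among activation markers, Retnla, made by alternatively activated macrophages, had a difference of 6.02 ± 1.06 (adjusted p = 0.0125). Its levels were -1.16, -1.94, -1.92 and -1.20 in TAM post-sepsis and -1.21, -0.57 and -0.93 in TAM naïve, against -5.69, -6.61, -2.04 and -6.13 in M0 post-sepsis and 1.93, 1.71, 1.06 and 1.52 in M0 naïve. It was well above background on 1 of 4 M0 post-sepsis arrays. The scavenger receptor Marco had levels of 1.03, -0.97, 0.22 and 0.83 in TAM post-sepsis and -1.72, -1.58 and -1.55 in TAM naïve. M0 levels stood at 1.19, 1.17, 1.54 and 1.85 post-sepsis and 3.50, 3.08, 3.14 and 3.40 naïve, so that it too was separated in opposite directions, by 3.73 ± 0.52 (adjusted p = 0.00249). Calls in the whole activation lists were 2 of 18 for M1 activation and 2 of 19 for alternative activation, beside 1.32% of all genes.

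Products that act on matrix and vessels gave 4 of 24 with a higher effect and none lower. Mmp14, a membrane protease that cuts collagen, had levels of 1.29, 0.59, 1.98 and 1.57 in TAM post-sepsis and -0.24, 0.12 and 0.77 in TAM naïve. The M0 arrays read -2.78, -2.91, -2.92 and -2.62 post-sepsis and -0.20, -0.20, -0.10 and 0.07 naïve. The TAM arrays overlapped at 1 point, the M0 arrays did not, and the difference was 3.84 ± 0.43 (adjusted p = 0.000638). Bmp2, a secreted growth factor, was at 4.14 ± 0.55, thrombospondin (Thbs1) at 3.66 ± 0.74 and the protease inhibitor Timp2 at 1.42 ± 0.31. Fos and Dusp1 were the 2 of 16 immediate early genes that differed, at 2.77 ± 0.50 and 2.33 ± 0.48, both through a fall in M0. Ceruloplasmin (Cp), a copper carrier, Plxdc2, a membrane receptor, and Gab1, a signalling adaptor, completed the leading positive differences at 4.98 ± 0.67, 4.37 ± 0.59 and 4.25 ± 0.63. Gab1 was well above background on 1 of 3 TAM naïve and 1 of 4 M0 post-sepsis arrays, and its difference was 0.995 with normexp correction (adjusted p = 0.0661).

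Of 23 genes of fatty acid synthesis and sterol regulation, 11 rose and 1 fell within M0 alone, with a median effect of 1.30 in M0 beside 0.47 in TAM. The TAM groups lay apart, higher post-sepsis, for 9 of the 23, beside 10.8% of all genes. For the difference, 5 had a lower effect in TAM (Fads2, Scd1, Scd2, Elovl6 and Fasn) and 1 a higher one, the sterol-sensing receptor Nr1h3 at 2.57 ± 0.49. Scd1, which puts the double bond into oleic acid, had levels of 1.11, 0.61, 2.24 and 1.21 in TAM post-sepsis and -0.16, 0.42 and 0.71 in TAM naïve. In M0 it had 0.95, 2.16, 0.77 and 2.60 post-sepsis and -3.69, -4.51, -3.82 and -5.36 naïve, where it was well above background on 2 of 4 arrays. The TAM groups overlapped, the M0 groups lay far apart, and the difference was -5.00 ± 0.71 (adjusted p = 0.00282).

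Scd2, its paralog, had levels of 7.06, 6.84, 7.29 and 6.85 in TAM post-sepsis and 6.08, 6.04 and 6.67 in TAM naïve. On M0 arrays the levels were 7.02, 7.65, 6.59 and 7.43 post-sepsis and 2.36, 2.17, 1.67 and 2.33 naïve. Both pairs of groups were apart, in the same direction, with a difference of -4.30 ± 0.40 (adjusted p = 0.000188), which was -1.86 with TAM naïve replicate 2 kept (adjusted p = 0.516). Fads2, a desaturase of polyunsaturated fatty acids, was well above background on no M0 naïve array. It was at least 38.5-fold higher in M0 post-sepsis, from measured means of 0.92 and -5.73, and its rise in M0 was at least 12.9-fold larger than in TAM.

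Of 20 cholesterol synthesis genes, 19 rose within M0 alone, with a median effect of 1.98 in M0. In TAM no gene of any kind passed in the main fit. The TAM groups lay apart, higher post-sepsis, for 6 of the 20, beside 10.8% of all genes and 3001 of 16023 protein-coding genes. The 20 effects in TAM were all above 0, with a median of 0.59, beside 0.285 over all protein-coding genes. The list's median in TAM was 0.29 after quantile normalization and 0.24 with the coding gap as a covariate. All 20 differences were below 0 and 6 passed (3 to 9 with single arrays left out, and 13 after quantile normalization). Among them were Fdps, Hsd17b7, Sqle, Acat2 and Idi1. Fdps, which joins the isoprene units, had levels of 6.72, 6.58, 5.96 and 6.25 in TAM post-sepsis and 5.63, 5.85 and 6.27 in TAM naïve. In M0 it had 6.84, 7.26, 6.41 and 6.68 post-sepsis and 4.13, 4.07, 3.34 and 3.98 naïve. The TAM groups overlapped and the M0 groups were apart. Its difference was -2.46 ± 0.40 (adjusted p = 0.00736), and Hsd17b7 and Sqle, 2 further enzymes of the route, were at -2.11 ± 0.33 and -1.93 ± 0.36. The sterol element TCACNCCAC lay in the window of 1 of 15 cholesterol genes, against 1.44% of all genes.

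Hypoxia and glycolysis genes gave 6 of 28 with a lower effect in TAM and none higher. No gene of the list had TAM groups apart, beside 23.3% of all genes. The median effect was 0.23 in TAM and 1.29 in M0. Ak4, a mitochondrial adenylate kinase induced by HIF, had levels of 2.02, 2.58, 2.34 and 1.98 in TAM post-sepsis and 1.75, 2.04 and 2.14 in TAM naïve. In M0 it had 1.17, 1.92, 0.93 and 1.75 post-sepsis and -3.98, -3.27, -3.0 and -3.48 naïve. Its difference was -4.62 ± 0.41 (adjusted p = 0.000178). Egln3, an oxygen-sensing hydroxylase, was at -3.56 ± 0.59, Ankrd37, a HIF target, at -2.99 ± 0.40, and Slc16a3, which exports lactate, at -2.96 ± 0.40. P4ha2 and Ldha were the other 2 that passed.

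Mgarp, a mitochondrial protein of the same setting though on no list, had levels of 3.1, 4.10, 3.57 and 2.86 in TAM post-sepsis and 3.27, 3.22 and 3.80 in TAM naïve. In M0 it had -0.78, -0.34, -1.27 and -0.03 post-sepsis, and was well above background on no M0 naïve array. It was at least 13.4-fold higher in M0 post-sepsis, from measured means of -0.61 and -6.33, with a fitted difference of -5.75 ± 0.46 (adjusted p = 6.82e-05).

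The amino acid response had the highest median effect in M0 of the pathway lists, at 2.38 beside 0.57 in TAM, and 7 of 19 genes had a lower effect in TAM and none a higher one. The TAM groups lay apart, higher post-sepsis, for 9 of the 19, beside 10.8% of all genes. Psat1 of serine synthesis had levels of 4.63, 4.63, 4.20 and 4.44 in TAM post-sepsis and 3.41, 3.84 and 4.12 in TAM naïve. M0 levels stood at 4.97, 5.52, 4.58 and 5.20 post-sepsis and 1.33, 1.45, 0.74 and 1.50 naïve. Both pairs were apart in the same direction, and the difference was -3.13 ± 0.39 (adjusted p = 0.00111). Phgdh, the first enzyme of that route, was at -3.08 ± 0.37, the amino acid carrier Slc7a5 at -3.06 ± 0.49 and asparagine synthetase (Asns) at -2.42 ± 0.40. Chac1, Shmt2 and Trib3 also passed. Genes of endoplasmic reticulum stress, a neighbouring response, gave no call among 18. As 1.32% of all genes were called, this does not set the list apart from genes at large.

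Cell cycle genes had positive effects in both cell types for all 29 measured, with a median of 0.63 in TAM and 1.89 in M0, and 24 rose within M0 alone. Rrm2, Ccnb1, Mki67, Birc5 and Bub1 had a lower effect in TAM, though leaving out single arrays gave 0 to 6 calls, quantile normalization 16 and the coding gap as a covariate 20. With that covariate the median effect in TAM was 0.02. Mki67, a mark of dividing cells, had levels of 5.21, 5.21, 4.94 and 5.0 in TAM post-sepsis and 4.52, 4.63 and 4.96 in TAM naïve. The M0 arrays read 5.21, 5.91, 5.06 and 5.92 post-sepsis and 3.68, 3.37, 2.81 and 3.40 naïve. Its difference was -1.82 ± 0.38 (adjusted p = 0.0319).

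**Figure D4:**
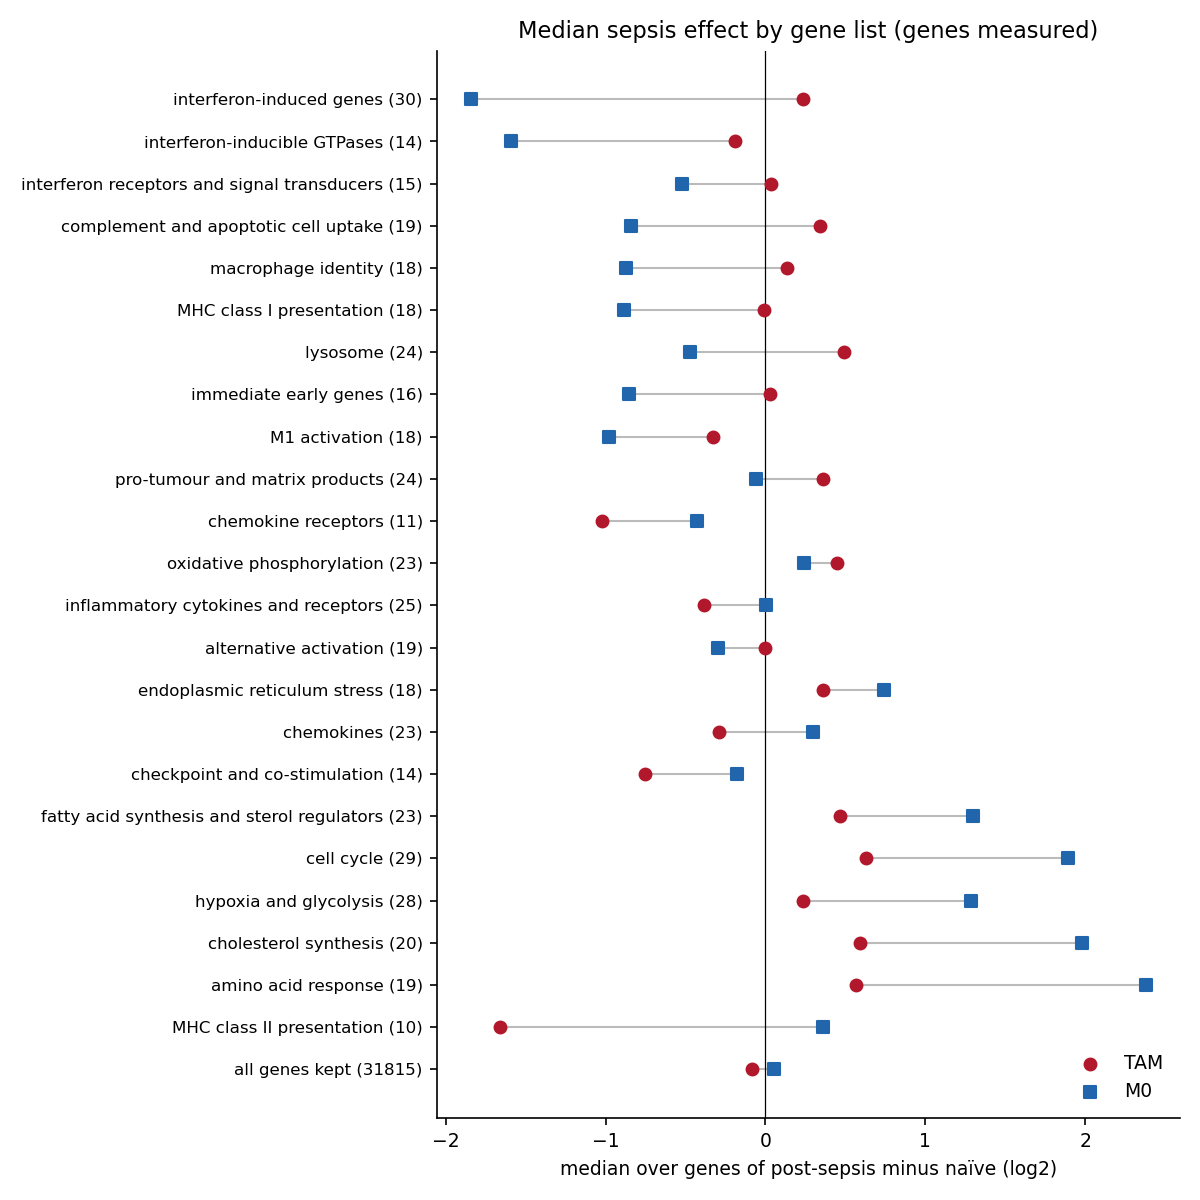
Median sepsis effect (log2) over the measured genes of each list, in TAM (circles) and M0 (squares), with the number of genes in brackets. Interferon-induced genes and GTPases lie furthest below 0 in M0 and metabolic and cell cycle lists furthest above it, and of the lists drawn, which leave out the other cell type markers, MHC class II is lowest in TAM at -1.66.

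Of 10 MHC class II genes measured, all had negative effects in TAM, with a median of -1.66 beside 0.36 in M0. Only H2-Eb1, which encodes a class II beta chain, passed for the difference, at -2.54 ± 0.54 (adjusted p = 0.0348), and 4 did with the slide block. H2-Eb1 levels were 5.14, 4.38, 4.50 and 5.52 in TAM post-sepsis and 5.79, 7.54 and 6.43 in TAM naïve. On M0 arrays the levels were 4.44, 5.27, 4.37 and 4.76 post-sepsis and 4.09, 3.97, 3.49 and 3.96 naïve. Both pairs were apart, in opposite directions. No T, NK or B cell marker passed for the difference, although 10 of 19 and 5 of 11 lay lower in TAM post-sepsis without overlap (12.4% of all genes did). Cd3d of the T cell receptor complex was at -3.68 ± 0.90 (adjusted p = 0.0657).

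Cd209a, a lectin of monocyte-derived dendritic cells, was among the genes with a lower effect in TAM, with levels of -2.58, -2.04, -2.39 and -1.62 in TAM post-sepsis and -0.23, -0.01 and -0.22 in TAM naïve. In M0 it had -2.54, -1.43, -2.79 and -1.74 post-sepsis and was well above background on no naïve array. It was at least 4.67-fold higher in M0 post-sepsis, from measured means of -2.13 and -5.93, and the 2 effects differed at least 18.7-fold. The fitted difference was -5.80 ± 0.62 (adjusted p = 0.000464). Bank1, a B cell adaptor, had levels of -3.01, -1.88, -5.61 and -2.23 in TAM post-sepsis and -0.71, 1.22 and -0.74 in TAM naïve, and its difference was -4.76 ± 0.98. Il1r2, the decoy receptor for interleukin 1, was at -4.62 ± 0.75, with an effect of -1.71 in TAM and 2.91 in M0. It was well above background on 1 of 4 M0 naïve arrays. Slco4a1, an organic anion carrier, was at -4.39 ± 0.58. The co-stimulatory ligand Tnfsf9 was the 1 of 14 checkpoint and co-stimulation genes that passed, at -2.91 ± 0.42. Mpo, the peroxidase of neutrophil granules, was the 1 of 16 neutrophil markers that passed, at -2.27 ± 0.40. It does not stand for its list, whose median difference was 0.01 and whose median effect in M0 was -1.50. Within M0 alone 9 of the 16 fell and 1 rose, beside 1.91% and 2.36% of all genes.

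No gene passed the test in both cell types within the same fit, whether in the same or in opposite directions, since no TAM effect passed there. With the slide as a block 18 genes passed in both in the same direction and 12 in opposite directions, and without TAM post-sepsis replicate 2 the numbers were 212 and 73. Genes that agreed or opposed were therefore described by whether post-sepsis and naïve arrays overlapped, a rule chosen after the values were seen and carrying no test. The groups did not overlap in TAM for 23.3% of genes (10.8% higher, 12.4% lower) and in M0 for 11.5% (5.65% higher, 5.82% lower). In both at once and in the same direction there were 466 genes (1.46%), 330 higher (1.04%) and 136 lower (0.427%), which were 6.30% of those apart in TAM and 12.8% of those apart in M0. In opposite directions there were 251 (0.789%). How many of either kind unrelated effects would give was not tested, so the counts do not show shared changes. With a RefSeq name, a measured level in both cell types and an effect of at least 1 in both, 45 genes agreed, 19 higher and 26 lower, and 29 were opposed.

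Among genes higher in both, Aldh18a1 of proline synthesis had levels of -0.11, -0.84, 0.67 and -0.18 in TAM post-sepsis and -2.07, -1.99 and -1.06 in TAM naïve. Levels in M0 were -0.98, 0.07, -1.39 and 0.00 post-sepsis and -3.18, -3.56, -3.85 and -3.58 naïve. The effects were 1.59 ± 0.42 in TAM and 2.97 ± 0.39 in M0, with both pairs of groups apart. Cbr2, a carbonyl reductase, had effects of 1.49 in TAM and 3.24 in M0. Chaf1a, which deposits histones behind the fork, had levels of 2.52, 1.70, 2.21 and 2.42 in TAM post-sepsis and 0.60, 0.32 and 1.43 in TAM naïve. M0 levels stood at 1.52, 2.65, 1.57 and 2.39 post-sepsis and 0.56, -0.04, -0.57 and 0.06 naïve. Fancd2 of DNA crosslink repair (1.31 in TAM, 1.94 in M0), the licensing factor Cdc6 (1.20 in TAM, 1.90 in M0), the cyclin Ccnd2 (1.16 in TAM, 2.07 in M0) and the kinesin Kif18a (1.14 in TAM, 1.64 in M0) were also among the 19. Chac1, which degrades glutathione, had effects of 1.10 in TAM and 3.37 in M0 and was the only one of the 45 whose difference passed, at -2.27 ± 0.51 (adjusted p = 0.0428). None of the 19 passed in TAM, with or without the slide block.

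Among genes lower in both, Cxcr4, the receptor of the chemokine Cxcl12, had levels of -0.29, -0.34, -1.60 and -0.15 in TAM post-sepsis and 0.77, 2.06 and 0.45 in TAM naïve. The M0 arrays read 0.04, 0.44, 0.01 and 0.46 post-sepsis and 1.97, 2.35, 1.99 and 2.39 naïve. Its effects were -1.69 ± 0.40 in TAM and -1.94 ± 0.37 in M0, and their difference was 0.25 ± 0.54 (adjusted p = 0.779). With the slide block Cxcr4 passed in both. Cd83, a surface mark of activated antigen-presenting cells, had levels of 3.02, 2.17, 1.38 and 3.50 in TAM post-sepsis and 3.90, 5.60 and 4.21 in TAM naïve. On M0 arrays the levels were 2.77, 3.20, 2.66 and 2.73 post-sepsis and 5.25, 4.73, 4.30 and 4.71 naïve. Both pairs of groups were apart.

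The chemokine receptor Ccr3 had effects of -1.63 in TAM and -2.37 in M0, the sorting receptor Sorl1 -2.54 in TAM and -1.72 in M0, and the GTPase Rab44 -1.99 in TAM and -1.56 in M0. Inpp5j, a phosphoinositide phosphatase, was at -2.37 in TAM and -2.57 in M0, and the histone gene H2bu2 at -2.02 in TAM and -1.84 in M0. Srpk3, a kinase of splicing factors, had effects of -4.01 in TAM and -2.80 in M0, and was well above background on 1 of 4 TAM post-sepsis arrays and on no M0 post-sepsis array, so that it was at least 4.86-fold lower there, with measured means of -4.50 and -1.70. Cxcr4, Cd83, Ccr3, Inpp5j, H2bu2, Rab44 and Srpk3 were among the 9 of the 45 that passed in both cell types with the slide block. All 9 were lower in both.

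**Figure D5:**
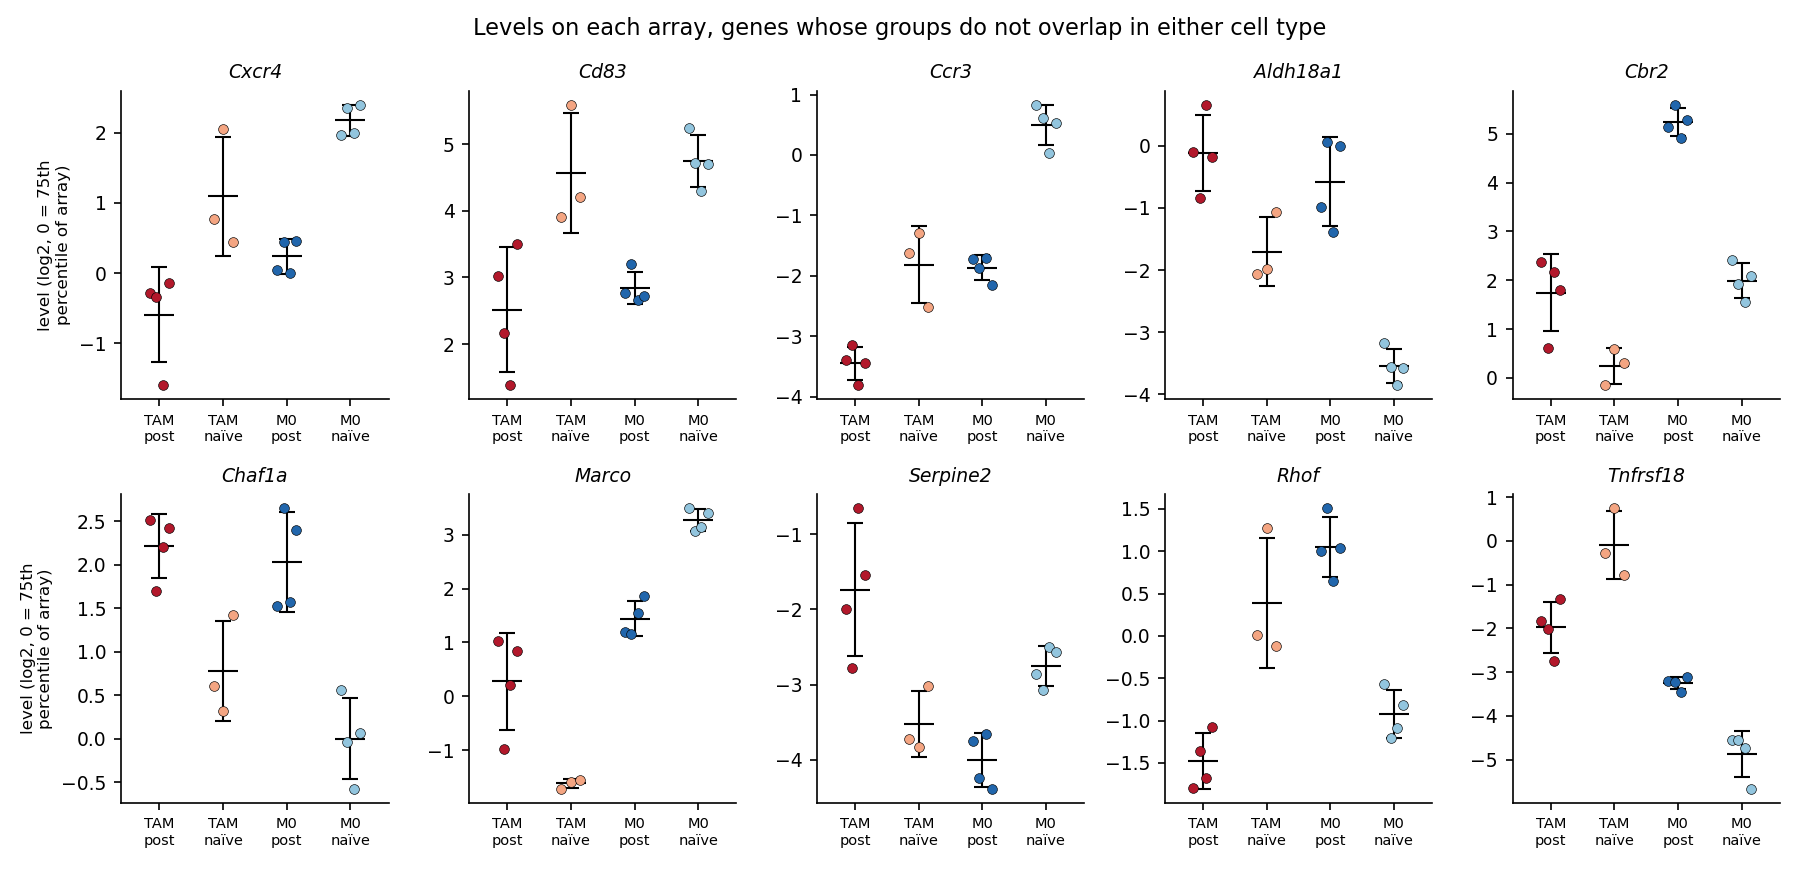
Level on each array (log2, 0 is the array's 75th percentile) of genes whose post-sepsis and naïve arrays did not overlap in TAM nor in M0, with the mean and SD. The first 6 panels moved in the same direction in both cell types (Cxcr4, -1.69 in TAM and -1.94 in M0), and the last 4 in opposite directions.

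The rule that chose the 29 opposed genes fixes a large difference in each. Beyond Cd5l, Marco and Gab1, those higher in TAM and lower in M0 included the protease inhibitor Serpine2 (1.78 in TAM, -1.25 in M0), the protocadherin Pcdh7 (1.50 in TAM, -1.59 in M0) and the AKT phosphatase Phlpp1 (1.26 in TAM, -2.12 in M0). Serpine2 levels were -1.99, -2.77, -0.65 and -1.54 in TAM post-sepsis and -3.72, -3.83 and -3.01 in TAM naïve. Levels in M0 were -3.74, -4.24, -3.66 and -4.38 post-sepsis and -2.86, -3.07, -2.50 and -2.57 naïve. Serpine2 was well above background on 1 of 3 TAM naïve and 1 of 4 M0 post-sepsis arrays.

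Those lower in TAM and higher in M0 included, beside Cd209a, Bank1 and Slco4a1, the small GTPase Rhof, Tnfrsf18 and Agap2. Rhof had levels of -1.80, -1.35, -1.68 and -1.07 in TAM post-sepsis and 0.01, 1.28 and -0.12 in TAM naïve. M0 levels stood at 1.00, 1.51, 0.65 and 1.04 post-sepsis and -0.57, -1.20, -1.09 and -0.81 naïve. Its difference was -3.84 ± 0.47 (adjusted p = 0.00106). Tnfrsf18, a co-stimulatory receptor best known from T cells, was at -3.50 ± 0.54. It was well above background on no M0 naïve array and was at least 2.14-fold higher in M0 post-sepsis. Agap2, a GTPase-activating protein, was at -3.63 ± 0.63.

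Of the 420 genes, 48 were measured in M0 only and 9 in TAM only, so that 1 side of their difference has no measured level. Adgre4, a macrophage adhesion receptor, was well above background on all 4 M0 naïve arrays and on no M0 post-sepsis array, and was at least 12.4-fold lower post-sepsis, from measured means of -5.35 and -0.40. Igf2bp3, an RNA-binding protein, Adra1a, an adrenergic receptor, and Ddx60, an antiviral helicase, were also called, and were well above background on no TAM array and on 1 of 4 M0 post-sepsis arrays, so that no size is given for their differences. On the negative side, Klrd1, an NK cell receptor chain, had levels of -3.35, -4.54, -3.92 and -2.23 in TAM post-sepsis and -1.30, -0.93 and -1.87 in TAM naïve. Well above background on no M0 naïve array, it had effects that differed at least 8.17-fold. Likewise, those of Btla, a lymphocyte inhibitory receptor, differed at least 4.10-fold and those of the lectin Cd209c at least 3.26-fold. Plb1, a phospholipase, was at least 4.56-fold higher in M0 post-sepsis, and Ambp, a secreted protease inhibitor precursor, was called with no size given.

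Several mediators usually measured in tumour macrophages did not differ between the 2 effects at the threshold. Il1b had levels of 4.26, 2.36, 1.68 and 4.92 in TAM post-sepsis and 4.38, 6.26 and 4.14 in TAM naïve, against -3.67, -2.54, -3.42 and -2.85 in M0 post-sepsis and 0.14, 0.01, -0.25 and 0.05 in M0 naïve. It fell in M0 (adjusted p = 0.000834 within M0), and its difference was 1.48 ± 0.93 (adjusted p = 0.335). Cd274, which encodes the checkpoint ligand PD-L1, had effects of -0.98 in TAM and -2.46 in M0, and a difference of 1.48 ± 0.64 (adjusted p = 0.227). The mannose receptor Mrc1 had effects of 1.19 in TAM and 1.75 in M0 (difference -0.56 ± 0.59), and Vegfa, the vessel growth factor, 0.30 in TAM and -0.73 in M0 (difference 1.04 ± 0.46).

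For Nos2, Tgfb1, Tnf and Il10 the differences were 0.38 ± 0.63, 0.18 ± 0.44, -0.40 ± 0.78 and -0.43 ± 0.56. The confidence interval of each difference spanned 0, from -2.07 to 1.28 for Tnf. Arg1, the arginase of tumour macrophages, and Cxcl12 were well above background on all TAM arrays and on no M0 array, so their differences of -0.45 ± 0.89 and -0.50 ± 0.92 have no measured M0 side. Of the remaining pathways, none of 23 oxidative phosphorylation genes and none of 24 lysosome genes passed, beside 1.32% of all genes, so these counts set neither list apart. The lysosome list had 23 positive differences, with a median of 0.49 in TAM and -0.47 in M0, and 5 passed without TAM post-sepsis replicate 2. The sterol transporter Npc2 came nearest, at 2.23 ± 0.52 (adjusted p = 0.053).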

How the data were processed

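Per the file headers, the deposited files held spot intensity values of 1-colour Agilent arrays, background-subtracted and detrended within each array by the authors' scanner software. The submitters' processing notes gave Agilent Feature Extraction 12.5, whereas the file headers gave 10.7.3.1. A deposited table of log2 values was not used here, because earlier work on these data had matched its columns to the scanner files of other samples. Groups rest on the scanner files as deposited under each sample. Which of the 2 carries the right sample order was not settled, and if it is the table, the post-sepsis and naïve effects would change.

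From there, log2 intensity was centred on each array's 75th percentile, control spots were dropped and repeated spots averaged. Kept probes passed the scanner's background flag on 3 or more arrays of 1 group, and the probe of highest mean stood for a symbol. Of 55681 probes, RefSeq accessions named 27656, current symbols 3401 and synonyms 321, while 917 kept the file's name and 23386 had no gene name. The number of arrays limits precision.

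One limma 3.58.1 fit (R 4.3.3) over 15 arrays gave all effects, two-sided, with Benjamini-Hochberg adjustment over all genes at 0.05. TAM and M0 were also fitted alone. Errors are limma's SE. The "at least" folds set a group below background at its detection limit. The fit was tested on simulated data.

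Named genes were the 10 largest differences per direction, agreeing, opposed and 1-sided genes, 14 chosen mediators and the 4 lowest p per list (34 lists). Members and lists were chosen with earlier results of these data known. The overlap rule, the slide block without TAM post-sepsis replicate 2 and the coding gap were chosen after seeing the data. Promoters came from RefSeq (GRCm38.p6). Some genes are not reported here.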

Additional observations from a re-analysis of the deposited data

Results flagged for a closer look

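The sepsis effect differed between TAM and M0, by the test of the difference itself, for the 20 leading genes. Those with a higher effect in TAM were Ccl5 (difference 6.29), Retnla (6.02), Cd5l (5.87), Cfb (5.69), Cp (4.98), Ifit2 (4.84), Ifit3 (4.42), Plxdc2 (4.37), Ccl8 (4.30) and Gab1 (4.25). Those with a lower effect in TAM were Cd209a (-5.80), Mgarp (-5.75), Fads2 (-5.06), Scd1 (-5.00), Bank1 (-4.76), Ak4 (-4.62), Il1r2 (-4.62), Slco4a1 (-4.39), Scd2 (-4.30) and Ccl7 (-4.11). Cd209a, Mgarp and Fads2 were well above background on no M0 naïve array, so their values carry no order and are bounded only by differences of at least 18.7-fold, 13.6-fold and 12.9-fold. With normexp correction they were -2.88, -2.36 and -2.24. Single arrays far from the rest of their group of 4 were looked for in 32 genes and 96 groups, where chance alone flags about 1 group in 20. They were found for Cxcr4 on TAM post-sepsis replicate 3, at -1.60, and for Cxcl12 on M0 naïve replicate 1, at -4.87, a gene that was well above background on no M0 array.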

How the results depend on the processing

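No leading gene changed direction under any alternative. Of the 20, all passed with the slide as a fixed or random block, quantile normalization, all 23 arrays or array weights, and 16 to 20 passed with 1 array left out. With TAM naïve replicate 2 kept 16 passed (not Fads2, Il1r2, Scd2 or Ccl7), with normexp correction 17 (not Cfb, Gab1 or Fads2), with the coding gap 17 (not Cfb, Ccl8 or Bank1), with the replicate block 18 (not Bank1 or Ccl7) and without the dim filter 19 (not Ccl7). The count of 420 moved more. It was 1006 after quantile normalization, 238 without the filter on dim probes, 1725 with all 23 arrays in the fit, 89 with TAM naïve replicate 2 kept and 6895 with array quality weights, whose estimation did not converge. Leaving out 1 array gave 177 to 2017. The count was over 1.5 times lower without TAM post-sepsis 1, 3 or 4, TAM naïve 1 or 3, M0 post-sepsis 1, or M0 naïve 1, 2 or 4. Added after seeing the data, the slide block without TAM post-sepsis replicate 2 gave 655 and the coding gap as a covariate 674 (70.2% lower, against 43.6%). Genes agreeing in both, 0 at first, were 18 with the slide block, 3743 with weights, 1 after quantile normalization, 227 with 23 arrays, 24 with TAM naïve replicate 2 kept, 195 with the slide block without that TAM post-sepsis array, and 0 to 212 with 1 array left out. Opposed genes, also 0, were 12, 466 and, after normexp correction, 1, then 69, 9, 77 and 0 to 73 in the same order. Same replicate numbers did not pair post-sepsis with naïve arrays in either cell type (correlations of deviations -0.525 to 0.23 in TAM and -0.532 to 0.544 in M0), although between M0 post-sepsis and TAM naïve all 3 were positive (0.515, 0.193 and 0.305). The replicate block gave 197 for the difference, 10160 for TAM alone and 603 for M0 alone, where the 2 groups share 4 numbers. TAM alone, 0 at first, gave 10099 with the slide block, 7250 with it and without replicate 2, and 0 to 9923 with 1 array left out. M0 alone, 1361 at first, gave 2214 after quantile normalization, 4241 with the coding gap and 527 to 1317 with 1 array left out. The cause of these moves was not tested. Intensities below background limit the size of changes in dim genes.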
